A study of Mus musculus with 12 samples.

Results

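The 9 genes described here, F3, F10, F13a1, Thbd, Procr, Plau, Plaur, Plat and Serpinb2, encode proteins of blood coagulation and of the plasminogen system. They form a list of gene symbols that was drawn up with earlier results of these data known, with no expression value in its rule, and each symbol had 1 row among the 55335 genes of the expression table. All 9 passed the filter on low values (at least 1 FPKM in at least 3 libraries), as did 12622 genes in all.

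RNA sequencing was performed on mouse bone marrow-derived macrophages (BMDMs), which are cells grown from marrow with macrophage colony-stimulating factor for 7 days. The mice were 8 weeks old and of the C57BL/6 strain, and were either wild-type or Nlrp3-/-, a knockout of the gene for the sensor protein of the NLRP3 inflammasome. Of the 12 libraries, 3 were made in each of 4 groups, namely untreated (control) and stimulated (LPS+ATP) cells of either genotype. By the sample labels, control cells were untreated and stimulated cells received bacterial lipopolysaccharide (LPS) for 4 hours and then ATP for 30 min, whereas the study's methods for these cells give 12 hours of LPS and 2 hours of ATP. There was no group with LPS alone or ATP alone, so the effects of these agents cannot be told apart, and the labels do not say whether the 3 libraries of a group came from separate mice. The p-values therefore measure the spread between these libraries, which may be technical.

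Coagulation begins when tissue factor (F3) on a cell surface binds factor VII and the pair activates factor X (F10), which in turn makes thrombin; thrombin cuts fibrinogen into fibrin, and factor XIII (its catalytic A chain is encoded by F13a1) cross-links the fibrin. Thrombomodulin (Thbd) and the endothelial protein C receptor (Procr) hold thrombin and protein C together on the cell surface, so that protein C is activated and clotting is restrained. Fibrin is removed by plasmin, which urokinase (Plau) and tissue plasminogen activator (Plat) make from plasminogen. Plaur encodes the urokinase receptor, and Serpinb2 encodes plasminogen activator inhibitor 2. Macrophages are a known source of tissue factor, factor XIII-A, urokinase and its receptor.

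The sequence just before the transcription start is shown for the 6 genes whose promoters were in the RefSeq promoter table (build GRCm38.p6), because these genes include those with the largest responses to stimulation. Promoters of Thbd, Plau and Plat were not analysed here. The sequences are written 5′ to 3′ on the strand of the gene, with matches to the motifs searched in capitals. They lie at chr3:121723287-121723536 (plus strand), chr8:13037058-13037307 (plus strand), chr13:37050245-37050494 (minus strand), chr2:155750967-155751116 (plus strand), chr7:24462233-24462482 (plus strand) and chr1:107511173-107511422 (plus strand); for Procr 150 bases are shown, up to the start of the gene in the GENCODE annotation, and for the others 250 bases.
F3: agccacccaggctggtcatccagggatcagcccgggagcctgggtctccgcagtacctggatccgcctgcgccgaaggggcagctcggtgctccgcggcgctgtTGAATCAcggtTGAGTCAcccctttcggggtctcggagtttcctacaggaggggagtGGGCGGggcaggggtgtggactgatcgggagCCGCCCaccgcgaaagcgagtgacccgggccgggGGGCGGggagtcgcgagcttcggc
F10: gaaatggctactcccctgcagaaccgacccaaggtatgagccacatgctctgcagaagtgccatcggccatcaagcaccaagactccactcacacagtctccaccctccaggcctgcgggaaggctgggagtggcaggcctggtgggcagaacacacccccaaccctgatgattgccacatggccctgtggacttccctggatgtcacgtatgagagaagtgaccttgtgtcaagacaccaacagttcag
F13a1: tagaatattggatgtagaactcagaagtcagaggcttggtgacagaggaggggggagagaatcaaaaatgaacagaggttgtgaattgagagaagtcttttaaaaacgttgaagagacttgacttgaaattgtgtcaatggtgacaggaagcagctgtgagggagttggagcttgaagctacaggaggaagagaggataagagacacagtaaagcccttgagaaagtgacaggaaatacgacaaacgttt
Procr: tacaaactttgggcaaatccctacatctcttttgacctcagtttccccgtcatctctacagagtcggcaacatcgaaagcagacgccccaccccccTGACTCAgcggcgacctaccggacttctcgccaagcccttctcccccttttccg
Plaur: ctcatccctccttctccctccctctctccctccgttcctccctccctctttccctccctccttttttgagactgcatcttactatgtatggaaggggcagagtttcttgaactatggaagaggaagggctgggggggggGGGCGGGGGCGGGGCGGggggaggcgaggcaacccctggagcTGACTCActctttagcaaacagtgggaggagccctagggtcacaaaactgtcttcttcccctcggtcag
Serpinb2: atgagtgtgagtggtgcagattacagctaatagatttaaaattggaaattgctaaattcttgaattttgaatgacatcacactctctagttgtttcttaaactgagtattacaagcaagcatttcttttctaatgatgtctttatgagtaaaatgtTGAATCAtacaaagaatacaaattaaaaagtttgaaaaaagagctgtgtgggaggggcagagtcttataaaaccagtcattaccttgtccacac

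The motifs searched, on both strands, were AP-1 (TGANTCA), CRE (TGACGTCA), EGR (GCGTGGGCG or GCGGGGGCG), SP1 (GGGCGG) and NF-kB. The AP-1 motif was found in the 250 bases before the start of F3 (2 matches, the first 146 to 140 bases before the start), Procr (154 to 148 bases before the RefSeq start), Plaur (69 to 63 bases) and Serpinb2 (94 to 88 bases). It was not found in F10 or F13a1. Of all 32851 promoters in the table, 6.75% held this motif. SP1 matches were present in F3 (3 matches) and Plaur (3 matches), and 32.7% of all promoters held one. In Plaur, 2 of the 3 SP1 matches overlap 1 EGR match, a motif that 3.06% of promoters held. CRE and NF-kB motifs, held by 1.55% and 7.25% of promoters, had no match in any of the 8 promoters listed for these 6 genes. F13a1 and Serpinb2 are listed with more than 1 start, and the second Serpinb2 promoter holds the same AP-1 match. A match describes letters in this window and does not show that a factor binds there. Only exact matches were counted, for NF-kB to a strict consensus form. A site that departs from these letters was not looked for, so the lack of a match does not show that a site is absent.

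The 12 libraries had like totals (283278 to 299393 FPKM summed over genes), and their depths estimated from the steps between low values lay within 1.218-fold of each other. Nlrp3 was at 9.68 ± 0.425 FPKM in wild-type control and 32.9 ± 0.801 FPKM in wild-type LPS+ATP libraries (SD, n = 3), and at 0 in all Nlrp3-/- libraries. Macrophage markers were abundant, with the summed level of 7 markers between 11005 and 21004 FPKM, most of it from Lyz2. Without stimulation, 5 of the 7 were lower in Nlrp3-/- cells by limma adjusted p under 0.05, and none was called. Their log2 differences were -0.73 for Cd68, -0.62 for Csf1r, -0.40 for Fcgr1, -0.36 for Adgre1 and -0.21 for Cd14. Those of Mertk (0.071) and Lyz2 (-0.061) did not pass the test. After LPS+ATP, 4 of the 7 differed between genotypes by limma adjusted p under 0.05, beside 48.5% of all tested genes, and none was called. Their median log2 difference was then -0.17. Means in wild-type and Nlrp3-/- cells were 204 and 124 FPKM for Fcgr1, 460 and 327 FPKM for Adgre1 and 814 and 620 FPKM for Cd68. Mertk (18.8 and 16.7 FPKM), Csf1r (178 and 176 FPKM) and Lyz2 (9471 and 9309 FPKM) differed by less, and Cd14 was higher (530 and 537 FPKM). The genotypes differed in other ways too: Xist, which is transcribed from an inactive X chromosome, averaged 53.8 and 33.4 FPKM in Nlrp3-/- control and LPS+ATP cells but was under 0.1 FPKM in wild-type cells, and the Y-linked Ddx3y averaged 9.10 and 8.52 FPKM in wild-type cells and was at 0 in Nlrp3-/- cells, so that genotype and sex of the mice cannot be told apart. The summed level of 8 fibroblast markers was 163 to 168 FPKM in wild-type control and 1189 to 1206 FPKM in Nlrp3-/- control libraries, and 191 to 194 and 928 to 944 FPKM after LPS+ATP, with 6 of the 8 called higher in Nlrp3-/- cells in each state and none under 1 FPKM in every library. The summed level of 7 neutrophil and precursor markers, of which Ly6g was under 1 FPKM in all libraries, was 241 to 274 against 1420 to 1468 FPKM in control cells and 91.6 to 108 against 417 to 445 FPKM after LPS+ATP. Megakaryocyte and platelet markers moved with genotype and stimulation as well: the summed level of 6 markers was 241 to 248 FPKM in wild-type control, 305 to 311 FPKM in wild-type LPS+ATP, 395 to 414 FPKM in Nlrp3-/- control and 287 to 296 FPKM in Nlrp3-/- LPS+ATP libraries, with none under 1 FPKM in every library. Pf4 was the largest part of this sum, at 205 and 210 FPKM in wild-type and 276 and 248 FPKM in Nlrp3-/- control and LPS+ATP cells. Of these 6 markers, Ppbp and Itga2b were called higher in untreated Nlrp3-/- cells, and 5 (Ppbp, Gp9, Itga2b, Gp1ba and Gp1bb) had a called negative interaction of genotype and stimulation. Also called higher in untreated Nlrp3-/- cells were 2 of 4 tested endothelial markers (Pecam1 and Cdh5) and 1 of 3 tested mast cell and basophil markers (Mcpt8). The other tested endothelial markers were lower on average in untreated Nlrp3-/- than in wild-type cells. Vwf was at 5.29 against 8.67 FPKM, and Kdr at 1.52 against 1.91 FPKM with overlapping libraries. The part of these cells, and of sex, in the genotype differences given here was not tested, and in bulk RNA fewer cells of a type and less RNA per cell cannot be told apart.

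Without stimulation, those of the 9 genes with the highest levels in macrophages were urokinase, factor XIII-A and the urokinase receptor. In wild-type control cells Plau was at 67.2 ± 2.62 FPKM, F13a1 at 41.2 ± 0.252 FPKM, Plaur at 30.2 ± 1.69 FPKM and F10 at 14.1 ± 0.458 FPKM (SD, n = 3, and FPKM is scaled to gene length, so that levels of different genes can be set side by side). Procr (4.93 ± 0.457 FPKM) and Thbd (4.75 ± 0.123 FPKM) followed with overlapping libraries. Serpinb2, F3 and Plat were each under 1 FPKM on average, and Serpinb2 overlapped F3 and F3 overlapped Plat. After LPS+ATP the order was different, with F10 and Procr at the top in both genotypes. In wild-type LPS+ATP cells F10 averaged 299 ± 12.8 FPKM and Procr 225 ± 10.1 FPKM, above 99.0% and 98.7% of the genes tested, and Plaur, Serpinb2, Plau and F13a1 came next in this order without overlap. F3, Thbd and Plat were the lowest of the 9 in every stimulated library, with F3 and Thbd overlapping in wild-type and F3 and Plat overlapping in Nlrp3-/- cells.

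**Figure D1:**
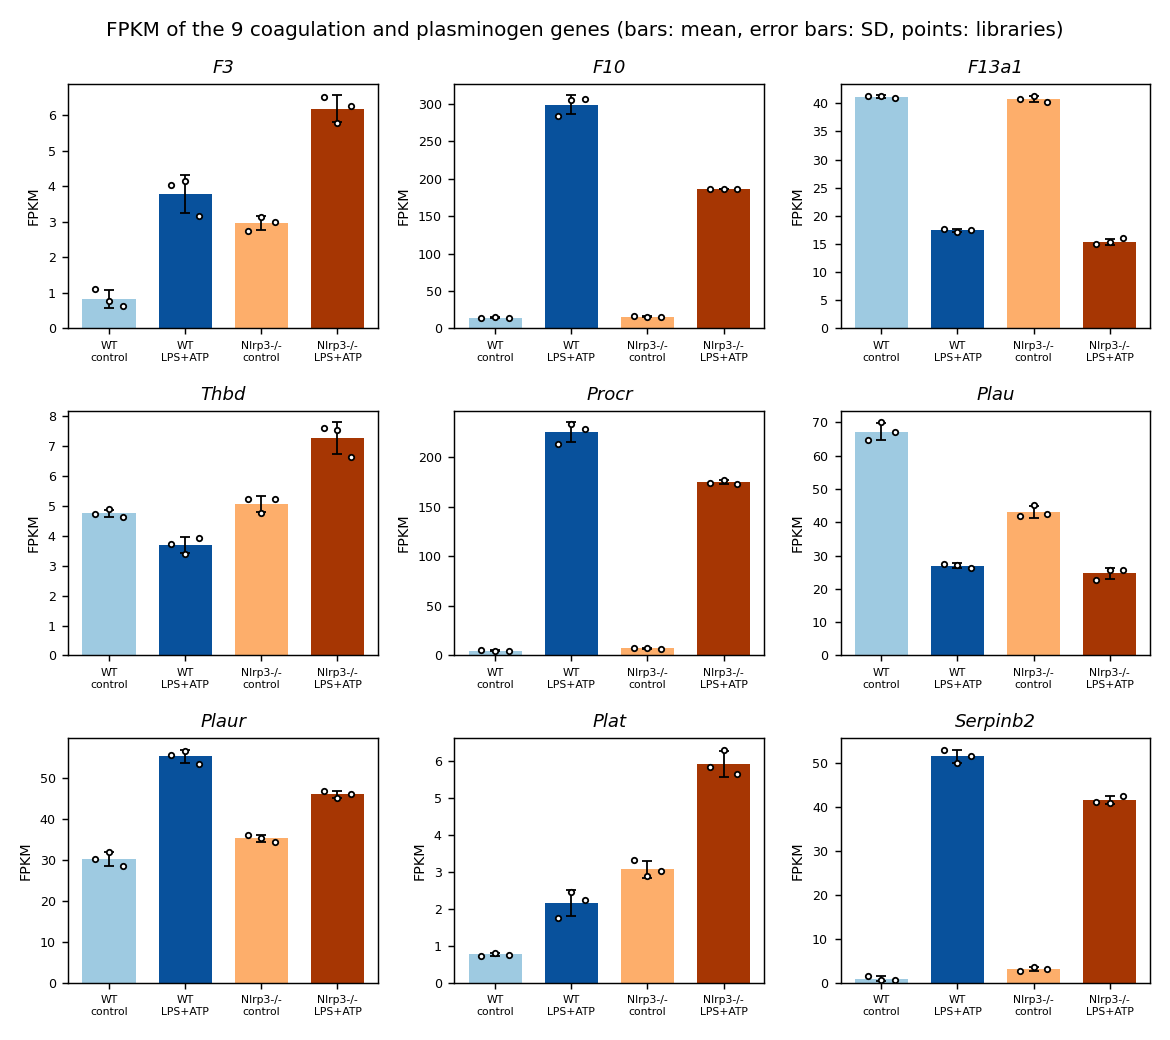
Level of each of the 9 genes in FPKM (y axis, linear from 0, its own scale in each panel) in the 4 groups; bars are means, error bars SD and points the 3 libraries of a group. F10, Procr and Serpinb2 are low in both control groups and high in both LPS+ATP groups, and Plau and F13a1 show the opposite order.

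A gene was called when limma gave a Benjamini-Hochberg adjusted p under 0.05 over all 12622 genes and the difference on the log2(FPKM + 1) scale was at least 1 in either direction. Because 1 is added before the log is taken, this scale understates the change of low genes, and ratios of mean FPKM are therefore given as well. In wild-type cells, stimulation raised 4 of the 9 genes (F3, F10, Procr, Serpinb2) and lowered 2 (F13a1, Plau), where 8.25% of all tested genes were called higher and 11.2% lower. The median log2 difference of the 9 genes was 0.85, against -0.25 for all tested genes. In Nlrp3-/- cells, 3 rose (F10, Procr, Serpinb2) and 1 fell (F13a1), beside 6.64% and 8.21% of all tested genes, with a median of 0.77 against -0.24. By adjusted p alone, all 9 genes differed in both genotypes, but so did 76.4% and 74.3% of the tested genes, so a count by p alone is close to the background. When the FPKM values were rescaled by median ratios, which shifted the overall median by 0.24 in the wild-type and by 0.23 in the Nlrp3-/- comparison, the 9 genes split into 6 called higher and 0 lower in wild-type cells, and all tested genes into 1391 higher and 896 lower in place of 1041 and 1411. With the same rescaling the split in Nlrp3-/- cells was 4 higher and 1 lower, and that of all tested genes 1097 and 601 in place of 838 and 1036.

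Among the genes of clot formation, factor X rose steeply with stimulation in both genotypes, tissue factor rose by less and passed the fold limit in wild-type cells alone, and factor XIII-A fell in both. F10 (ENSMUSG00000031444; GRCm38 chr8:13037308-13056676, plus strand) was at 13.7, 14.6 and 13.9 FPKM in the 3 wild-type control libraries and at 284, 306 and 307 FPKM in the wild-type LPS+ATP libraries. The Nlrp3-/- libraries were at 16.3, 14.7 and 15.4 FPKM in control and 187, 186 and 186 FPKM in LPS+ATP libraries. All 6 stimulated libraries lay far above all 6 control libraries, and the wild-type stimulated libraries lay above the Nlrp3-/- ones without overlap. The ratio of means was 21.2 in wild-type and 12.1 in Nlrp3-/- cells, and the log2 differences were 4.31 (SE 0.043, limma adjusted p = 1.019e-14) and 3.51 (SE 0.043, limma adjusted p = 5.583e-14).

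F3 (ENSMUSG00000028128; chr3:121723537-121735048, plus strand), the receptor that starts coagulation, was at 1.09, 0.761 and 0.618 FPKM in wild-type control and 4.04, 4.14 and 3.16 FPKM in wild-type LPS+ATP libraries. The corresponding Nlrp3-/- libraries had 2.74, 3.14 and 3.00 FPKM and 6.51, 5.78 and 6.27 FPKM. The 4 groups did not overlap, although the lowest wild-type stimulated library was close to the highest Nlrp3-/- control library (3.16 and 3.14 FPKM). F3 rose in wild-type cells, with a ratio of means of 4.58 and a log2 difference of 1.39 (SE 0.10, limma adjusted p = 2.409e-07). For Nlrp3-/- cells the ratio was 2.09, and the log2 difference of 0.86 (SE 0.10, limma adjusted p = 1.787e-05) was below the fold limit. With a pseudocount of 0.1 that difference was 1.04 and was called, as it was with median-ratio scaling (1.08), TPM (1.05) and upper-quartile scaling (1.01).

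F13a1 (ENSMUSG00000039109; chr13:36867178-37050244, minus strand), which encodes the fibrin cross-linking chain of factor XIII, was at 41.3, 41.3 and 40.9 FPKM in wild-type control libraries and at 17.7, 17.1 and 17.4 FPKM after LPS+ATP. The values in Nlrp3-/- cells were 40.8, 41.3 and 40.3 FPKM and 15.0, 15.3 and 16.0 FPKM. Libraries within a group lay close together, and each stimulated group was wholly below its control. The gene fell by 1.19 on the log2 scale in wild-type (SE 0.031, limma adjusted p = 2.236e-11) and by 1.35 in Nlrp3-/- cells (SE 0.031, limma adjusted p = 1.037e-11). The wild-type call was lost with median-ratio scaling (-0.89) and upper-quartile scaling (-0.95). The annotation holds 2 antisense genes that overlap F13a1, and neither exceeded 0.134 FPKM in any library.

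Of the anticoagulant receptors, Procr rose in both genotypes, with the largest difference of the 9 genes on the log2(FPKM + 1) scale, whereas Thbd stayed below the fold limit. In wild-type cells this rank rests on the added 1, since with a pseudocount of 0.1 the difference of Serpinb2 (5.79) exceeded that of Procr (5.49). Procr (ENSMUSG00000027611; chr2:155751117-155755471, plus strand), the receptor for protein C, was at 5.45, 4.58 and 4.76 FPKM in wild-type control libraries and at 213, 233 and 228 FPKM after LPS+ATP. The Nlrp3-/- groups were at 7.88, 7.67 and 6.84 FPKM and at 174, 177 and 173 FPKM. No groups overlapped, and the genotype that was higher without stimulation (Nlrp3-/-) was the lower after it. The ratio of means was 45.6 in wild-type and 23.4 in Nlrp3-/- cells, with log2 differences of 5.25 (SE 0.061, limma adjusted p = 2.925e-14) and 4.38 (SE 0.061, limma adjusted p = 1.586e-13).

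Thbd (ENSMUSG00000074743; chr2:148404466-148408188, minus strand) encodes thrombomodulin, the thrombin receptor that works with Procr. Its levels were 4.73, 4.88 and 4.64 FPKM in wild-type control and 3.73, 3.39 and 3.92 FPKM in wild-type LPS+ATP libraries, and 5.23, 4.76 and 5.22 FPKM and 7.60, 7.53 and 6.65 FPKM in the Nlrp3-/- groups. Every stimulated wild-type library was below every wild-type control, and every stimulated Nlrp3-/- library was above every Nlrp3-/- control. The log2 differences had opposite signs, -0.30 (SE 0.062, limma adjusted p = 0.0009798) in wild-type and 0.44 (SE 0.062, limma adjusted p = 5.4e-05) in Nlrp3-/- cells, and neither reached the fold limit. The lower level in wild-type cells depended on the scaling: with median-ratio scaling the difference was -0.043 (limma adjusted p = 0.5423) and with upper-quartile scaling -0.091 (limma adjusted p = 0.2301), and the libraries of the 2 wild-type groups overlapped under both. The direct test of the difference between these responses is given with the other interaction terms.

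In the plasminogen system, the inhibitor gene Serpinb2 rose steeply and urokinase fell, while the urokinase receptor and tissue plasminogen activator were higher after stimulation but below the fold limit. Serpinb2 (ENSMUSG00000062345; chr1:107511423-107535478, plus strand) was at 1.51, 0.578 and 0.640 FPKM in wild-type control libraries and at 53.1, 50.04 and 51.6 FPKM after LPS+ATP. Its Nlrp3-/- values were 2.55, 3.49 and 3.09 FPKM and 41.1, 40.9 and 42.6 FPKM. The control libraries of the 2 genotypes did not overlap, nor did the stimulated ones. The ratio of means was 56.6 in wild-type and 13.7 in Nlrp3-/- cells, and the log2 differences were 4.82 (SE 0.15, limma adjusted p = 9.067e-11) and 3.40 (SE 0.15, limma adjusted p = 2.691e-09). Serpinb10 overlaps Serpinb2 on the same strand and was at most 1.49 FPKM in any library, so that reads in the shared stretch could have been given to either gene. It averaged 0.461 and 0.339 FPKM in wild-type and 1.17 and 0.225 FPKM in Nlrp3-/- control and LPS+ATP cells. The part of such reads in the low Serpinb2 control levels was not tested.

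Plau (ENSMUSG00000021822; chr14:20836660-20843385, plus strand), which encodes urokinase, was at 64.8, 70.0 and 67.0 FPKM in wild-type control libraries and at 27.5, 27.3 and 26.1 FPKM after LPS+ATP. Its levels in Nlrp3-/- libraries were 41.8, 45.1 and 42.4 FPKM and 22.7, 25.5 and 25.7 FPKM. The control groups were well apart, and the stimulated groups were close to each other, with 26.1 FPKM the lowest wild-type and 25.7 FPKM the highest Nlrp3-/- value. Plau fell by 1.29 on the log2 scale in wild-type cells (SE 0.051, limma adjusted p = 8.898e-10), a call lost with median-ratio scaling (-0.98). In Nlrp3-/- cells the log2 difference was -0.78 (SE 0.051, limma adjusted p = 9.566e-08), short of the fold limit.

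Plaur (ENSMUSG00000046223; chr7:24462484-24475968, plus strand), the receptor that holds urokinase on the cell surface, was at 30.2, 31.9 and 28.5 FPKM in wild-type control and 55.7, 56.6 and 53.3 FPKM in wild-type LPS+ATP libraries. Nlrp3-/- libraries had 36.0, 35.4 and 34.3 FPKM and 46.8, 45.1 and 46.0 FPKM. The 4 groups were fully apart, with the Nlrp3-/- groups lying between the wild-type groups. The log2 differences were 0.85 (SE 0.042, limma adjusted p = 5.72e-09) and 0.37 (SE 0.042, limma adjusted p = 9.097e-06). The former was called with median-ratio scaling (1.16) and upper-quartile scaling (1.10).

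Plat (ENSMUSG00000031538; chr8:22757727-22782844, plus strand), which encodes tissue plasminogen activator, was at 0.727, 0.812 and 0.751 FPKM in wild-type control and 1.76, 2.46 and 2.23 FPKM in wild-type LPS+ATP libraries. Nlrp3-/- libraries had 3.33, 2.88 and 3.02 FPKM and 5.84, 6.32 and 5.65 FPKM. Each group was apart from the other 3, and all Nlrp3-/- libraries were above all wild-type libraries. The ratio of means for stimulation was 2.82 in wild-type and 1.93 in Nlrp3-/- cells, with log2 differences of 0.83 (SE 0.081, limma adjusted p = 2.339e-06) and 0.77 (SE 0.081, limma adjusted p = 5.563e-06). In wild-type cells the difference was called with a pseudocount of 0.1 (1.37), median-ratio scaling (1.04) and TPM (1.237).

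**Figure D2:**
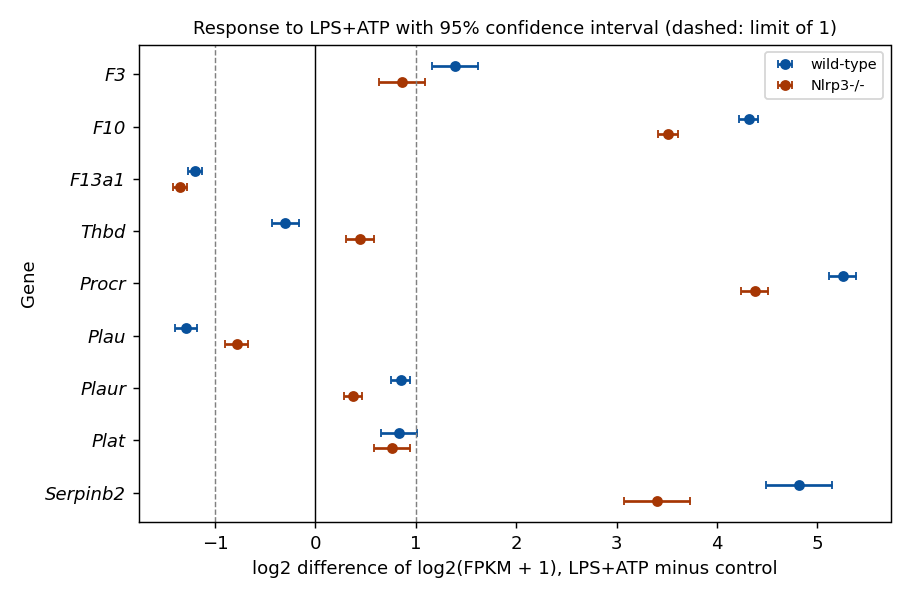
Difference between LPS+ATP and control cells for each gene (x axis, difference of log2(FPKM + 1)); points are limma estimates, bars 95% confidence intervals, blue wild-type and red Nlrp3-/-, and dashed lines mark the limit of 1. F10, Procr and Serpinb2 lie at 3.40 or above in both genotypes, and the intervals of Thbd lie on opposite sides of 0 with the values as deposited, though not with median-ratio scaling (wild-type limma adjusted p = 0.5423).

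Nlrp3-/- cells were then compared with wild-type cells in the same state, a comparison in which genotype and sex of the mice cannot be told apart. Without stimulation, F3, Plat and Serpinb2 were called higher in Nlrp3-/- cells and none of the 9 was called lower, where 6.02% of all tested genes were called higher and 0.689% lower. By adjusted p alone 7 of the 9 genes differed, as did 47.8% of the tested genes. The median log2 difference of the 9 genes was 0.22, against 0.088 for all tested genes. The level of F3 was 3.59-fold that of wild-type cells, with a log2 difference of 1.12 (SE 0.10, limma adjusted p = 4.036e-06). For Plat the ratio was 4.03 and the log2 difference 1.21 (SE 0.081, limma adjusted p = 2.595e-07), and for Serpinb2 they were 3.34 and 1.11 (SE 0.15, limma adjusted p = 8.656e-05). The 3 genes were the 3 lowest in wild-type control cells, each under 1 FPKM on average. With median-ratio scaling, which moved the median of all tested genes by -0.15, F3 (0.96) and Serpinb2 (0.95) were no longer called. Serpinb2 was also not called without wild-type control replicate 2 (0.99), so that 2 of the 9 genes were then called.

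The other 6 genes differed by less between the untreated genotypes. Plau was lower in Nlrp3-/- cells, at 0.64-fold the wild-type level (log2 difference -0.63, SE 0.051, limma adjusted p = 1.326e-06), and Procr was 1.51-fold higher (log2 difference 0.51, SE 0.061, limma adjusted p = 3.153e-05). Plaur (0.22, limma adjusted p = 0.001276) and F10 (0.12, limma adjusted p = 0.03359) differed slightly. Neither difference passed the test with median-ratio scaling, where F10 was at -0.062 (limma adjusted p = 0.2576) and Plaur at 0.023 (limma adjusted p = 0.7061), and that of F10 also did not pass with the replicate block, without the filter or without certain single libraries. The libraries of the 2 genotypes overlapped for F13a1 and Thbd. Their log2 differences were -0.012 (95% confidence interval -0.081 to 0.057, limma adjusted p = 0.7797) and 0.077 (-0.059 to 0.21, limma adjusted p = 0.3341), and the sign for Thbd turned with median-ratio scaling (-0.087). With the same scaling F13a1 was lower in Nlrp3-/- cells by adjusted p (-0.21, limma adjusted p = 0.0002313).

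After LPS+ATP, Plat was the only one of the 9 genes called between genotypes, and it was higher in Nlrp3-/- cells. Among all tested genes 4.48% were called higher and 0.57% lower. By adjusted p alone 7 of the 9 genes differed, beside 48.5% of the tested genes. The median log2 difference of the 9 genes was -0.17, and that of all tested genes was 0.11. Plat reached 2.76-fold the wild-type level, with a log2 difference of 1.14 (SE 0.081, limma adjusted p = 5.062e-07). With median-ratio scaling, which moved the median of all tested genes by -0.17, the value was 1.00 to 2 decimals and fell just short of the limit, so that 0 of the 9 genes were called.

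The 2 low-level genes Thbd and F3 were also higher in stimulated Nlrp3-/- cells, with ratios of 1.97 (log2 difference 0.82, limma adjusted p = 8.358e-07) and 1.64 (0.59, limma adjusted p = 0.0006522). F10, the most abundant of the 9 in this state, was at 0.624-fold the wild-type level (log2 difference -0.68, SE 0.043, limma adjusted p = 2.142e-07). Procr (-0.36), Plaur (-0.26) and F13a1 (-0.17) were likewise lower in Nlrp3-/- cells by adjusted p without reaching the fold limit. For Serpinb2 (-0.31, 95% confidence interval -0.63 to 0.023, limma adjusted p = 0.115) and Plau (-0.13, -0.24 to -0.012, limma adjusted p = 0.0649) the difference did not pass the test, although the 3 libraries of each genotype did not overlap. Both passed it, below the fold limit, with median-ratio scaling (-0.52, limma adjusted p = 0.01123 for Serpinb2, and -0.34, limma adjusted p = 0.000358 for Plau) and with upper-quartile scaling, and Plau also with the replicate block (limma adjusted p = 0.04233). Serpinb2 passed as well with the compared groups fitted alone (limma adjusted p = 0.0003813) and without wild-type control replicate 1 (limma adjusted p = 0.005904), a library outside that comparison, because all 4 groups share the estimate of the spread.

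**Figure D3:**
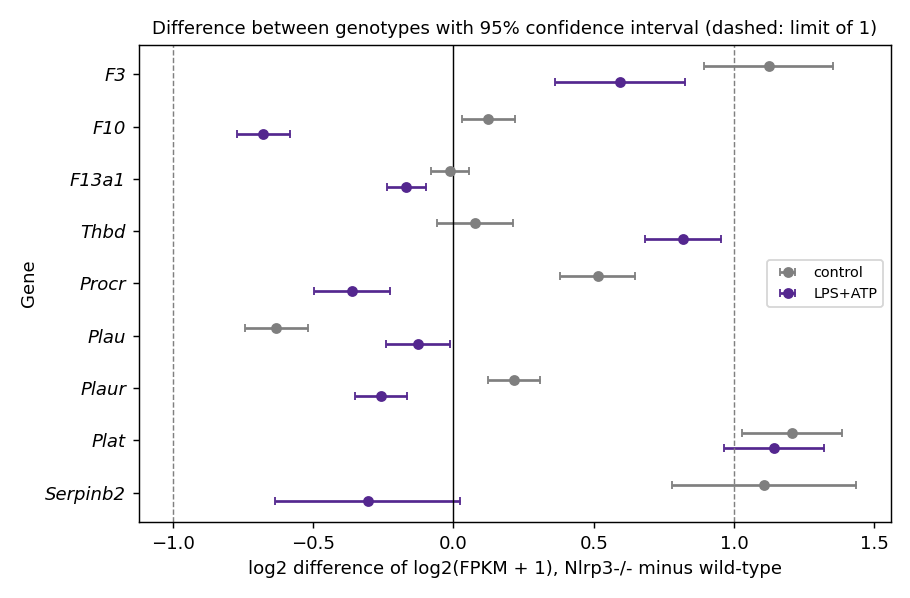
Difference between Nlrp3-/- and wild-type cells for each gene (x axis, difference of log2(FPKM + 1)); points are limma estimates, bars 95% confidence intervals, grey control and purple LPS+ATP, and dashed lines mark the limit of 1. F3, Plat and Serpinb2 lie above 1 in control cells, and Plat alone lies above 1 after LPS+ATP.

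Whether the response to LPS+ATP differed between genotypes was tested directly with the interaction term, that is, the log2 difference in Nlrp3-/- cells minus that in wild-type cells. Serpinb2 was the only one of the 9 genes called, with a smaller log2 response in Nlrp3-/- cells (-1.41, SE 0.21, limma adjusted p = 0.0005332). Its wild-type and Nlrp3-/- levels were 0.911 and 3.04 FPKM in control cells and 51.6 and 41.5 FPKM after LPS+ATP. The log2 difference between genotypes was larger in control than in stimulated cells, so the term rests more on the low control levels. The difference between stimulated genotypes did not pass the test in the main fit but passed it under some of the alternatives. Among all tested genes 0.721% had a called positive and 1.43% a called negative interaction. By adjusted p alone 8 of the 9 genes had one, as did 27.7% of the tested genes. The median was -0.47 for the 9 genes and 0.023 for all tested genes. Below the fold limit, the log2 response was smaller in Nlrp3-/- cells for Procr (-0.88, limma adjusted p = 2.777e-05), F10 (-0.80, limma adjusted p = 4.551e-06), F3 (-0.53, limma adjusted p = 0.02071) and Plaur (-0.47, limma adjusted p = 0.0001523). The level of F3 was higher in Nlrp3-/- than in wild-type cells in both states, at 2.96 against 0.825 FPKM in control and 6.19 against 3.78 FPKM after LPS+ATP. The interaction of Thbd was 0.74 (SE 0.087, limma adjusted p = 9.857e-05) and was 0.73 with median-ratio and 0.70 with upper-quartile scaling, under which the wild-type response itself did not pass the test. That of Plau was 0.51 (limma adjusted p = 0.0004117), as its level differed more between the genotypes in control than in stimulated cells. F13a1 had a small negative term (-0.16, limma adjusted p = 0.0229), which did not pass the test when any of 4 single libraries was left out (limma adjusted p up to 0.05579), and Plat had none that passed the test (-0.065, 95% confidence interval -0.32 to 0.19, limma adjusted p = 0.7241). With a pseudocount of 0.1 the interaction of Plat was -0.44 and did not pass the test either (limma adjusted p = 0.065). The adjusted p of F3 missed 0.05 in limma without the filter (0.0517) and without Nlrp3-/- LPS+ATP replicate 2 (0.05039). With a pseudocount of 0.1 the interaction of F3 was -1.05 and was called, making 2 of the 9 genes.

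The other genes of the coagulation and plasminogen system were examined from a list of 51 symbols, of which 50 had 1 row, 26 passed the filter and 12 were called in at least 1 of the 5 comparisons. The circulating proteins made in liver were largely absent: of the 24 genes not tested, 11 were listed at 0 in all 12 libraries, among them thrombin (F2), the 3 fibrinogen chains (Fga, Fgb, Fgg), plasminogen (Plg) and protein C (Proc). In wild-type cells, stimulation raised Tfpi2 and Tgm2 and lowered Lrp1 and S100a10, which is 7.69% of the 26 genes in each direction beside 8.25% and 11.2% of all tested genes. The median was -0.13 over the 26 genes and -0.25 over all tested genes. In Nlrp3-/- cells Tfpi2 and F7 rose and F2rl2, Kng1, Lrp1, S100a10 and F2r fell, which is 7.69% and 19.2% of the 26 genes beside 6.64% and 8.21% of all tested genes, with a median of -0.25 against -0.24.

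F7, the protease that tissue factor binds, was at 4.77 and 10.5 FPKM in wild-type and 9.71 and 22.5 FPKM in Nlrp3-/- control and LPS+ATP cells. Tgm2, a transglutaminase related to factor XIII-A, averaged 49.6 and 130 FPKM in wild-type and 51.0 and 78.1 FPKM in Nlrp3-/- cells. Lrp1, a receptor that clears complexes of protease and inhibitor, and S100a10, a partner of annexin A2 that binds plasminogen, averaged 117 and 92.7 FPKM in wild-type control cells and 51.1 and 41.0 FPKM after LPS+ATP.

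Between genotypes without stimulation, 7 of the 26 genes were called higher in Nlrp3-/- cells and 0 lower: the kininogens Kng1 and Kng2, the thrombin receptor family genes F2r and F2rl2, the inhibitors Serping1 and Serpine2, and the lipoprotein receptor gene Vldlr. The median log2 difference over all 26 genes was 0.38, against 0.088 for all tested genes, and 26.9% of the 26 were called higher beside 6.02% of all tested genes. After LPS+ATP, Serping1, F7 and Kng2 were called higher and 0 lower, which is 11.5% of the 26 beside 4.48% of all tested genes, with a median of 0.23 against 0.11. Serping1, the C1 and kallikrein inhibitor, was at 25.9 and 47.7 FPKM in wild-type and 79.4 and 111 FPKM in Nlrp3-/- control and LPS+ATP cells. F2r, which encodes a thrombin receptor, was at 1.05 and 2.60 FPKM in wild-type and 5.70 and 2.18 FPKM in Nlrp3-/- cells, and its interaction (-1.89), like that of F2rl2 (-1.79), was called negative. The platelet marker Ppbp had the same order of mean levels, at 31.3 and 80.4 FPKM in wild-type and 108 and 33.1 FPKM in Nlrp3-/- control and LPS+ATP cells (interaction -3.01). Its wild-type control and Nlrp3-/- LPS+ATP libraries overlapped. Of the other platelet markers, Itga2b and Gp1ba had this order of means, and Pf4, Gp9 and Gp1bb did not. The part of platelet-type cells in the F2r and F2rl2 values was not tested. F2rl2 overlaps Iqgap2 on the opposite strand, which averaged 19.1 and 3.40 FPKM in wild-type and 12.7 and 2.40 FPKM in Nlrp3-/- cells. Whether reads were counted by strand is not given in the sources used here, so reads of these 2 genes may not be told apart.

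**Figure D4:**
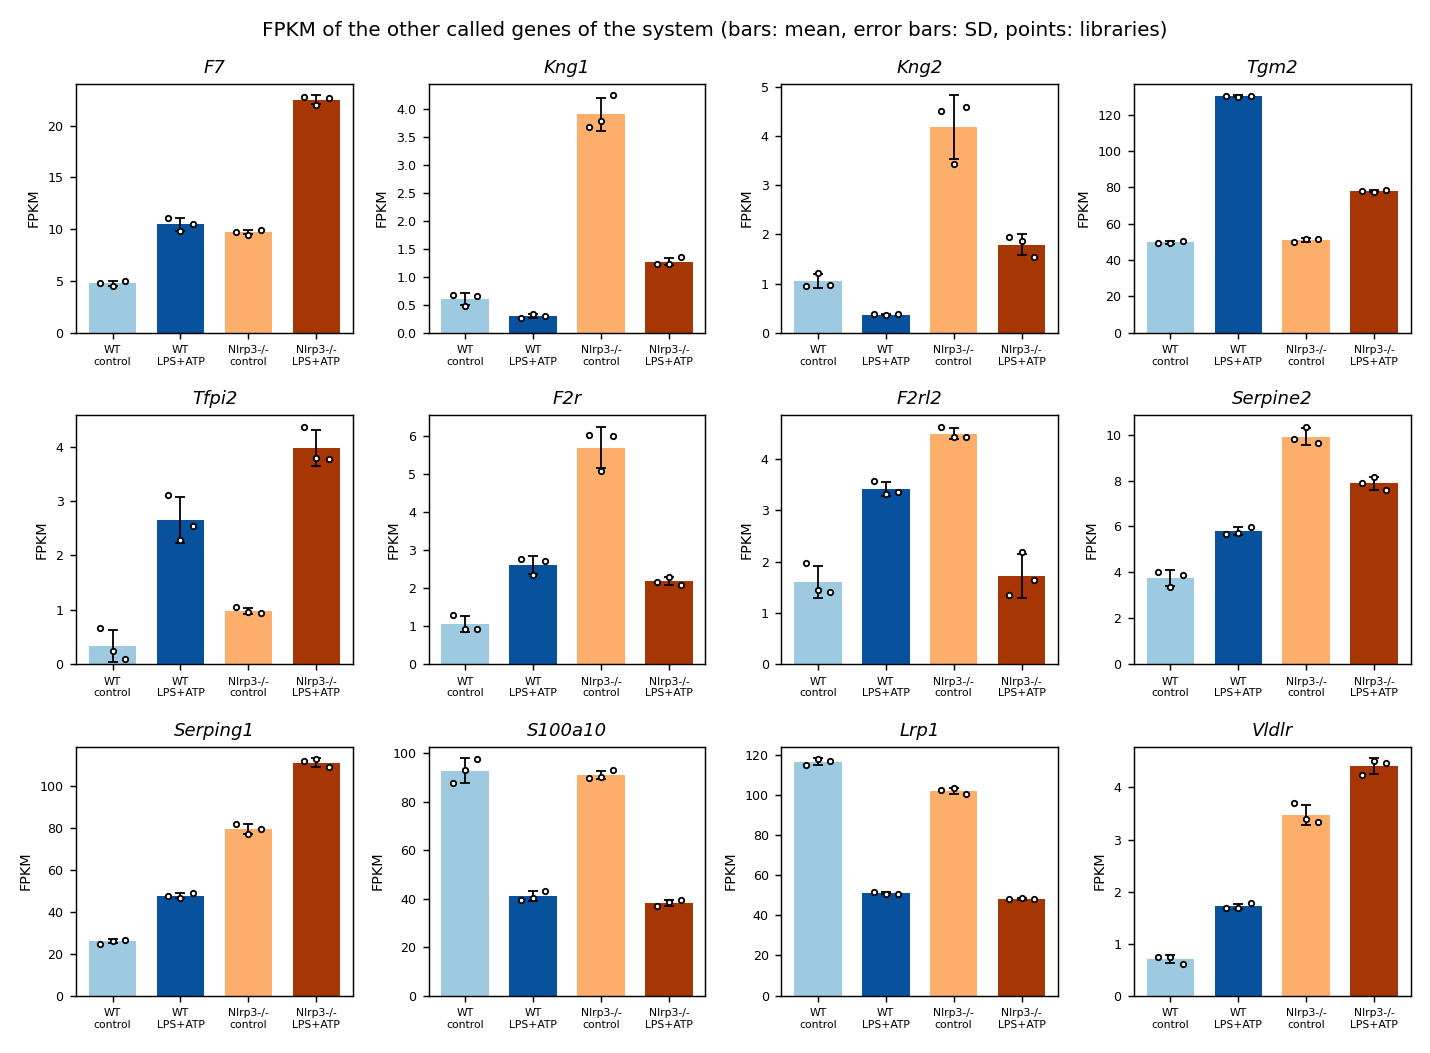
Level in FPKM (y axis, linear from 0, its own scale in each panel) of the 12 other genes of the system that were called in at least 1 comparison, in the 4 groups; bars are means, error bars SD and points the 3 libraries of a group. Lrp1 and S100a10 are lower in both LPS+ATP groups than in both control groups, and F2r and F2rl2 are highest in Nlrp3-/- control cells.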

How the data were processed

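Gene expression was taken from the FPKM table that the authors deposited, with 1 column for each of 12 libraries; FPKM is a fragment count scaled to gene length and to the library's total, and keeps no read counts. Per the labels, total RNA was extracted with Trizol and libraries were made with an Illumina TruSeq kit. The submitters' processing notes name the build GRCm39 and DESeq2 1.24.0; the aligner, the annotation and the use of strand are not given in the sources used here. No column of per-sample values was left unused (0). The authors' FPKM values have been scaled to each library's total, so a large change in a few abundant genes moves all others, and alternative scalings were run for this reason.

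Genes with at least 1 FPKM in at least 3 libraries were kept. Values were set to log2(FPKM + 1) and all 12 libraries were fitted in 1 model of the 4 group means with limma 3.58.1 (R 4.3.3), with a trend in the variance and Benjamini-Hochberg adjustment over all 12622 genes. The script was tested on simulated data. Named genes were the 9 members, and other genes of the system where called in any of the 5 comparisons; 1 gene of that list was left out of its counts. Untested genes listed at 0 in all libraries, the checks of genotype and sex, and cell type markers are named beside these. Members, gene lists and motifs were chosen with earlier results of these data known. Alternatives were no filter or a filter at 5 FPKM, a pseudocount of 0.1, median-ratio and upper-quartile scaling, TPM, no variance trend, a replicate block, the compared groups alone, no fold limit, and leaving out each library. Depth relative to the shallowest library (1.0 to 1.218) was estimated from the steps between low values; depth in reads is unknown, so no counting interval was computed. Replicates within groups correlated at 0.990 to 0.993 and no pair held identical values. Gene and promoter coordinates are of GRCm38 (GENCODE and RefSeq), not of the build in the notes, and served only to place genes and to read promoters. None of the 9 genes had another gene's transcript matching it at 95% identity or more over 20% or more of its longest transcript.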

Additional observations from a re-analysis of the deposited data

Results flagged for a closer look

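For 8 of the 9 genes the effect of LPS+ATP differed between Nlrp3-/- and wild-type cells by limma's test of the interaction (adjusted p under 0.05 over all tested genes), which is why they are listed here; 27.7% of all tested genes passed the same test. The interaction terms, as Nlrp3-/- minus wild-type response on the log2(FPKM + 1) scale, were -1.41 for Serpinb2, -0.88 for Procr, -0.80 for F10, -0.53 for F3, -0.47 for Plaur, -0.16 for F13a1, 0.51 for Plau and 0.74 for Thbd. Of these, Serpinb2 passed the fold limit, and for Thbd the stimulated libraries lay below the controls in wild-type and above them in Nlrp3-/- cells. With median-ratio scaling the wild-type libraries of Thbd overlapped and their difference was -0.043, while the interaction was 0.73. The genotypes also differed in sex and in fibroblast, neutrophil, endothelial, mast cell and platelet marker levels, the endothelial ones in both directions. The median log2 difference of the 7 macrophage markers was -0.36 between untreated genotypes, with 5 lower in Nlrp3-/- cells by limma adjusted p and none called. Between stimulated genotypes their median was -0.17, with 4 of the 7 differing by limma adjusted p and none called. By limma adjusted p, 6 of the 7 also had an interaction, with a median of 0.036 and none called. Called interactions, all negative, were found in 5 of 6 platelet and 2 of 6 tested neutrophil markers and in 0 of 8 fibroblast markers. The part of these differences in the terms above was not tested.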

How the results depend on the processing

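Over 981 results for single genes (9 genes, 5 comparisons, and the alternatives), 936 kept their direction and their call, 7 lost the call, 35 gained one, 25 of these by dropping the fold limit, and 3 changed sign. The adjusted p alone crossed 0.05 in 28 of them, in 8 pairs of gene and comparison. The changes of sign were in differences near 0: F10 (-0.062) and Thbd (-0.087) between untreated genotypes with median-ratio scaling, and the interaction of Plat (0.0053) without wild-type LPS+ATP replicate 2, with -0.16 to 0.0053 over all libraries left out in turn.

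The number of the 9 genes called moved with median-ratio scaling from 3 to 1 between untreated genotypes and from 1 to 0 between stimulated genotypes, with a pseudocount of 0.1 from 1 to 2 for the interaction, and without the fold limit to 9 for stimulation in Nlrp3-/- cells, 7 and 7 between genotypes without and with LPS+ATP, and 8 for the interaction. Leaving out 1 library gave 6 for stimulation in wild-type cells, 4 in Nlrp3-/- cells, 2 to 3 between untreated and 1 between stimulated genotypes, and 1 for the interaction.

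All tested genes called numbered 2452 and 1874 for stimulation in wild-type and Nlrp3-/- cells, 847 and 637 between genotypes without and with LPS+ATP, and 271 for the interaction. With a pseudocount of 0.1 these counts were 3702, 2847, 1428, 1406 and 634, and without the fold limit 9641, 9383, 6035, 6124 and 3494. With TPM they were 1285 and 1175 between genotypes and 501 for the interaction, and with the filter at 5 FPKM 515 between untreated genotypes, where fewer genes were tested. The cause of the other moves was not tested. With upper-quartile scaling, all tested genes split into 1303 higher and 969 lower for stimulation in wild-type cells and 1002 and 738 in Nlrp3-/- cells. Between untreated genotypes the split was 760 and 87, and 573 and 148 with median-ratio scaling; between stimulated genotypes it was 565 and 72, and 433 and 126.

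Replicate numbers did not pair the libraries: deviations of same-numbered libraries from their group means correlated at -0.057 to 0.053, over 0.1 in 0 of 12 pairs. A fit with the replicate number as a block left the counts for the 9 genes at 6, 4, 3, 1 and 1 in the 5 comparisons, and changed none of their 45 calls, although the adjusted p of Plau between stimulated genotypes (0.04233) and of F10 between untreated genotypes (0.0583) crossed 0.05 in limma. With 3 libraries a group and no read counts, differences of genes near 1 FPKM depend most on the constant added.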

Other observations

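The gene whose pattern over the 12 libraries was closest to each of the 9 was found by the root mean square difference of log2(FPKM + 1) values, each centred on the gene's own mean, among all tested genes. For Procr it was Il6 (0.168), a cytokine gene, followed by Cd38 (0.19). For F10 it was Tma16 (0.106), followed by Il1rn (0.121), which encodes the interleukin-1 receptor antagonist. Serpinb2 had the least close neighbour, Ch25h (0.228), which encodes cholesterol 25-hydroxylase, and then Slc7a11 (0.244). For F3 it was Smad6 (0.152) and for Plat it was Oaf (0.099). For Plau it was C1qb (0.062), a complement gene that averaged 769 FPKM in wild-type control, 323 FPKM in wild-type LPS+ATP, 497 FPKM in Nlrp3-/- control and 303 FPKM in Nlrp3-/- LPS+ATP cells. For F13a1 it was Ulbp1 (0.066), followed by S100a10 (0.07), for Plaur it was Il2rg (0.07) and for Thbd it was Sik1 (0.101).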
